A study of Mus musculus with 764 samples.

Results

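The Cxcr6-high cells are a group among the 764 single CD4+ T cells of this study, and all come from the spleen. They were chosen by their reads alone: a spleen cell had to hold at least 160000 reads over gene rows, 0 reads of Foxp3 and a Cxcr6 level of at least 200 CPM (reads of a gene per 1000000 reads of its cell). Only 30 spleen cells were too shallow, and 370 of the others had no Foxp3 read. The Cxcr6-high cells made up 42.2% of these 370 (95% Clopper-Pearson interval 37.1 to 47.4%), as 31, 71 and 54 cells in the 3 sets of wells. They were compared with the 40.3% of Foxp3-negative spleen cells without a single Cxcr6 read (35.2 to 45.5%), called Cxcr6-zero here, and the 65 cells in between are called Cxcr6-low.

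The mice were adult double reporter animals, with eGFP read out from the Il10 gene and mRFP from the Foxp3 gene, and all of them received anti-CD3, an antibody that expands IL-10-producing T cells in vivo. Sorted IL-10+ CD4+ T cells went singly into wells and were sequenced with SMART-seq2, which reads whole transcripts and does not tag single molecules. Foxp3-positive IL-10 producers were kept in the sort as a control, which is why the absence of Foxp3 reads is part of the choice. The labels name no animal and no untreated mouse, so the spleen counts as 1 sample, no test or p-value is given, and cells are not replicates. All ranges over cells and all exact intervals therefore describe these cells and counting error only. Spleen cells filled 3 sets of wells, columns 1-12 of plate p1, columns 13-24 of p1, and plate p2, and each ratio was also taken within them. The Cxcr6-high cells were split over these sets as 31, 71 and 54, the Cxcr6-zero cells as 16, 46 and 87. The Cxcr6-high share of the Foxp3-negative cells was 49.8% on p1 (interval 42.7 to 56.8%) and 32.7% on p2 (25.6 to 40.5%). A median Cxcr6-high cell held 352619 reads (162801 to 622997) and a median Cxcr6-zero cell 324164 (161141 to 596196). After thinning every cell to 160000 reads, a median of 3541 genes had a read in the Cxcr6-high and 2992 in the Cxcr6-zero cells. All 764 columns of counts differed from each other.

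Cxcr6 is the receptor for the chemokine Cxcl16 and marks effector and tissue-homing T cells that have left the naive state. IL-10-producing Foxp3-negative CD4+ T cells are often called TR1 cells. They are known for granzyme B, for co-inhibitory receptors such as Lag3, Tim-3 and PD-1, and for secreting IL-10 together with IFN-gamma. Naive and central memory T cells are known instead for Ccr7, which takes them into lymph nodes, and for the transcription factor Tcf7.

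The values that chose the cells are given as a description. Cxcr6 ranged from 245.8 to 7670 CPM in the Cxcr6-high cells with a median of 1566, and the lowest count behind these values was 72 reads. In the Cxcr6-low cells the median was 4.32 CPM, and 53 of the 65 cells held only 1 to 9 reads. Few cells lay near the threshold: 4 cells fell between 100 and 200 CPM and 7 between 200 and 400 CPM. The 3 cells just inside had 245.8, 252.7 and 284.9 CPM, and the 3 just outside lay between 146.5 and 196.3 CPM. Of the 3 just inside, 1 held Gzmb at 1200 CPM and another held Tcf7 at 264.7 CPM, so cells at the edge did not look alike.

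The cells read as CD4+ T cells. Cd3d and Cd3e, both subunits of the T cell receptor complex, had at least 10 reads in 100% of the Cxcr6-high cells and Cd4 in 99.4%. Cd8a stood at a mean of 0.193 CPM, but Cd8b1 reached 10 CPM. With Sox13, a gene of gamma delta T cells, they summed to a mean of 20.98 CPM and a median of 0. In the Cxcr6-zero cells this mean was 27.96 CPM. The label cytotoxic-like comes from its markers, which the cells held to differing degrees. Of the granule genes given below, Gzmb reached 10 reads in most of the cells, but Prf1 and Gzma each in a minority. The markers were picked on these same cells, so their levels are a description and no independent evidence. Of the other 7 marker genes (Ccl5, Ccl3, Gzmb, Havcr2, Serpinb9, Il18rap and Csf1), a Cxcr6-high cell held a mean of 3.65 with at least 10 reads, against 1.06 in Cxcr6-low and 0.50 in Cxcr6-zero cells. After thinning these means were 3.47, 0.98 and 0.48. At least 4 of the 7 were held by 86 Cxcr6-high cells (55.1%, interval 47 to 63.1%), all 7 by 10 cells, and none by 13 cells (8.33%, 4.51 to 13.8%). Among the Cxcr6-zero cells 69.1% held none (61.1 to 76.4%). The number was alike in the 3 sets, with means of 3.45, 3.80 and 3.57 in the Cxcr6-high cells. The 160 Foxp3-negative cells of the small intestine from the same study held a mean of 4.35, and none of them lacked all 7.

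**Figure D1:**
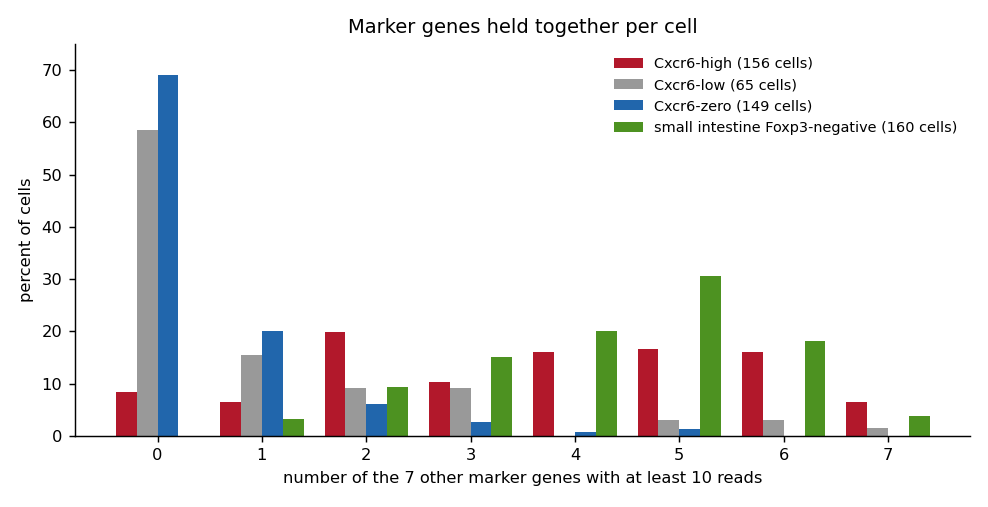
Percent of cells (y axis) by the number of the 7 other marker genes with at least 10 reads (x axis), with bars for 4 groups of Foxp3-negative cells. The Cxcr6-high cells spread over all numbers from 0 to 7, 69.1% of the Cxcr6-zero cells sit at 0, and the small intestine cells peak at 5.

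Promoter sequence of the genes that mark the cells is shown because 6 of the 7 markers with a RefSeq promoter window (GRCm38.p6, 250 bases before to 50 after the start of the gene) hold the RUNX core motif TGTGGT or its reverse complement ACCACA. RUNX factors are known regulators of T cell effector genes. The motif occurred in 16.8% of all 32851 windows of that length. It lies 10 bases before the start in Cxcr6, 93 and 34 bases before it in Gzmb and 46 in Havcr2, farther before it in Ccl3, and after the start in Serpinb9 and Il18rap. Csf1 was the marker without it, and Ccl5 had no window. The other motifs looked for on both strands were AP-1 (TGANTCA, in 7.81% of all windows), STAT (TTCNNNGAA, 8.3%), T-box (GGTGTGA, 3.98%) and TCF/LEF (CTTTGA, 16%). Among the markers and the 12 genes with the largest ratios each way 20 genes had a window, and 2, 2, 0 and 6 of them held these motifs, against 6 for RUNX. All 6 genes with RUNX were markers, so none of the other genes with a window held it. The markers were picked on these same cells and RUNX was singled out after 5 motifs were searched. Enrichment was not tested. A match is a string of letters and not a measured binding site. Capitals mark every match of the 5 motifs in the following 3 windows, written 5′ to 3′ on the strand of the gene.
Cxcr6, chr9:123806227-123806526, plus strand: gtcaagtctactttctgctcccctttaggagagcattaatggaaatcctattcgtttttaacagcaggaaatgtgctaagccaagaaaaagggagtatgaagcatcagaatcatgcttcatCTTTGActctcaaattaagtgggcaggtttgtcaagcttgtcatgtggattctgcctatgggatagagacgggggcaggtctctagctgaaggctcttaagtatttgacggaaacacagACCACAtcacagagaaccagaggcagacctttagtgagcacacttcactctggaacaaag
Gzmb, chr14:56262285-56262584, minus strand: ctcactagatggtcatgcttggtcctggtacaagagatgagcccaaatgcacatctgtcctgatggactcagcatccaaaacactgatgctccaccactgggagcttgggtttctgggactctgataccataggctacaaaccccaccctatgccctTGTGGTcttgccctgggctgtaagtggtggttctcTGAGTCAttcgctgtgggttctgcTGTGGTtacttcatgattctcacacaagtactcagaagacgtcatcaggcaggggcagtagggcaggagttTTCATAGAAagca
Havcr2, chr11:46454681-46454980, plus strand: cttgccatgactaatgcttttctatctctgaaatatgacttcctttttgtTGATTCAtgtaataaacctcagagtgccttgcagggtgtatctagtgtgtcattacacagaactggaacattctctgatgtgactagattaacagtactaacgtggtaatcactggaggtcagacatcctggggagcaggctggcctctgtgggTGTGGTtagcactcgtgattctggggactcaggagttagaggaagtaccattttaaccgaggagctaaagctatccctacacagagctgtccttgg
In Cxcr6 the capitals mark the TCF/LEF and then the RUNX motif, in Gzmb RUNX, AP-1, RUNX and STAT in this order, and in Havcr2 AP-1 and then RUNX.

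Over all genes, 8850 had a mean of at least 10 CPM in either group and were compared by the log2 ratio of mean CPM + 1, Cxcr6-high over Cxcr6-zero. A gene was counted as higher when this ratio was at least 1 and lay above 0 within both p1 and p2, and as lower in the mirrored case. By this rule 6.47% of the genes were higher and 7.31% (647 genes) were lower in the Cxcr6-high cells. The median ratio over all genes compared was -0.05 (-0.02 within p1 and -0.07 within p2). A gene with a mean of 10 CPM in only 1 group entered through that group and had to differ, which held for 45.4% of the higher and 47.6% of the lower genes. Such genes stand in the counts of gene lists unless said otherwise, and these counts are read against 6.47% and 7.31%. The plate condition removed 53 genes on the upper and 52 on the lower side. Of the higher genes, 83.4% lay above 0 in all 3 sets and 54.6% reached 1 within each plate. Of the lower genes, 65.4% lay below 0 in all 3 sets and 50.2% reached -1 within each plate. The calls depended on how a gene was averaged. With the mean of log2(CPM + 1) per cell the higher genes went from 2.39% to 4.53% of all 23997 gene rows and the lower genes from 2.7% to 0.754%. That average called again 45.4% of the higher and 20.4% of the lower genes.

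**Figure D2:**
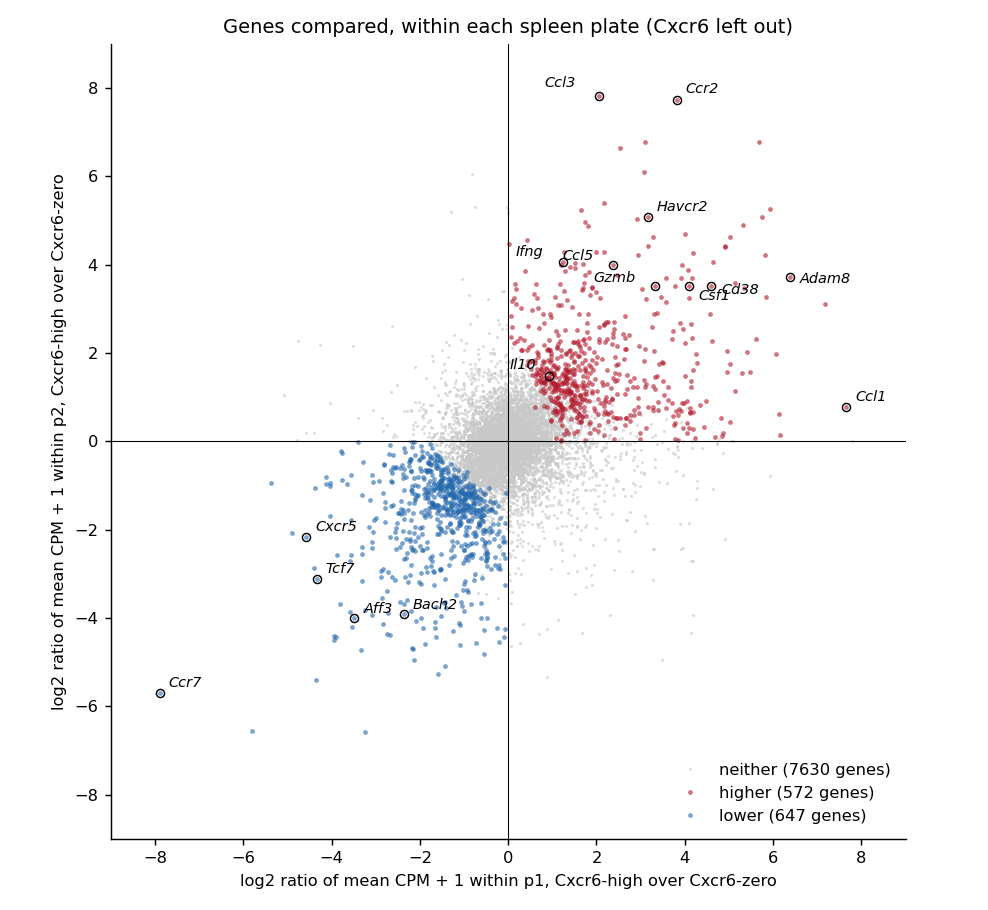
Log2 ratio of mean CPM + 1, Cxcr6-high over Cxcr6-zero cells, within p1 (x axis) and within p2 (y axis), 1 point per gene compared, with Cxcr6 left out. Red points are the other higher genes, blue points the 647 lower genes, and circles mark named genes, from Ccl3 and Ccr2 at the top to Ccr7 at the lower left.

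Genes of the cytotoxic granule were higher in the Cxcr6-high cells in 7 of 13 genes compared, and lower in 1, beside 6.47% higher and 7.31% lower over all genes. All 7 had a mean of at least 10 CPM in both groups, and 1 of them, Gzmb, is among the markers of the cells. Gzmb, the granzyme that cleaves caspases in a target cell, ranged from 0 to 20218 CPM over the Cxcr6-high cells with a median of 418.6, and from 0 to 8404 CPM with a median of 3.13 over the Cxcr6-zero cells. The groups overlapped, since both held cells without a read, and values above 8404 CPM occurred in Cxcr6-high cells alone. The mean was 2658 against 259.9 CPM, a log2 ratio of 3.35 ± 0.58 (SD of the 3 within-set ratios, n = 3 sets), and 3.32 within p1 and 3.53 within p2. At least 10 Gzmb reads were found in 62.2% of the Cxcr6-high cells (54.1 to 69.8%) and in 11.4% of the Cxcr6-zero cells (6.79 to 17.6%). Nkg7, a granule membrane protein, had the highest mean among the higher genes of this list with 4446 against 1036 CPM (log2 ratio 2.10 ± 1.04). Prf1, the pore-forming perforin, was held with 10 reads by only 19.2% of the Cxcr6-high cells and 7.38% of the Cxcr6-zero cells (log2 ratio 1.74 ± 1.18). Gzma, granzyme A, differed from Gzmb. Its mean of 121.3 against 20.5 CPM came mostly from few cells, the highest of which held 34.9% of all its reads in the group, and 8.97% of the Cxcr6-high and 5.37% of the Cxcr6-zero cells reached 10 reads. Its ratio was 0.17 within p1, 3.44 within p2, and -0.65 without cells that hold cell cycle genes. The cathepsins Ctsw, Ctsc and Ctsd had log2 ratios of 1.44, 1.28 and 1.19, Lamp1 had -1.07, and the granule proteoglycan Srgn was at 4880 and 4611 CPM in the groups.

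All 7 serpins of the list were higher, with a median log2 ratio of 2.42 beside -0.05 over all genes. Serpinb9b and Serpinb1a reached 10 CPM in the Cxcr6-high cells alone, and Serpinb9 is a marker. Serpinb9, which inhibits granzyme B inside the cell that carries it, ranged from 0 to 5565 CPM with a median of 133.5 in the Cxcr6-high cells, and from 0 to 1755 CPM with a median of 0 in the Cxcr6-zero cells. Its mean was 12.2 times that of the Cxcr6-zero cells. The log2 ratio was 3.58 over all sets, 4.09 within p1 and 3.24 within p2, and it varied more between the sets than that of Gzmb (SD 3.13). Serpinb6b followed with 638.7 against 118.5 CPM (2.42 ± 1.01). Serpinb1a had a ratio of 3.74 ± 2.08 but was held by 18.6% of the cells, and Serpinb9b by 3.21%. Within the Cxcr6-high cells Serpinb9 was found more often in cells that held Gzmb, though not in all of them. Of the 97 cells with at least 10 Gzmb reads, 69.1% had 10 reads of Serpinb9 (58.9 to 78.1%), against 35.6% (23.6 to 49.1%) of the 59 other Cxcr6-high cells.

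**Figure D3:**
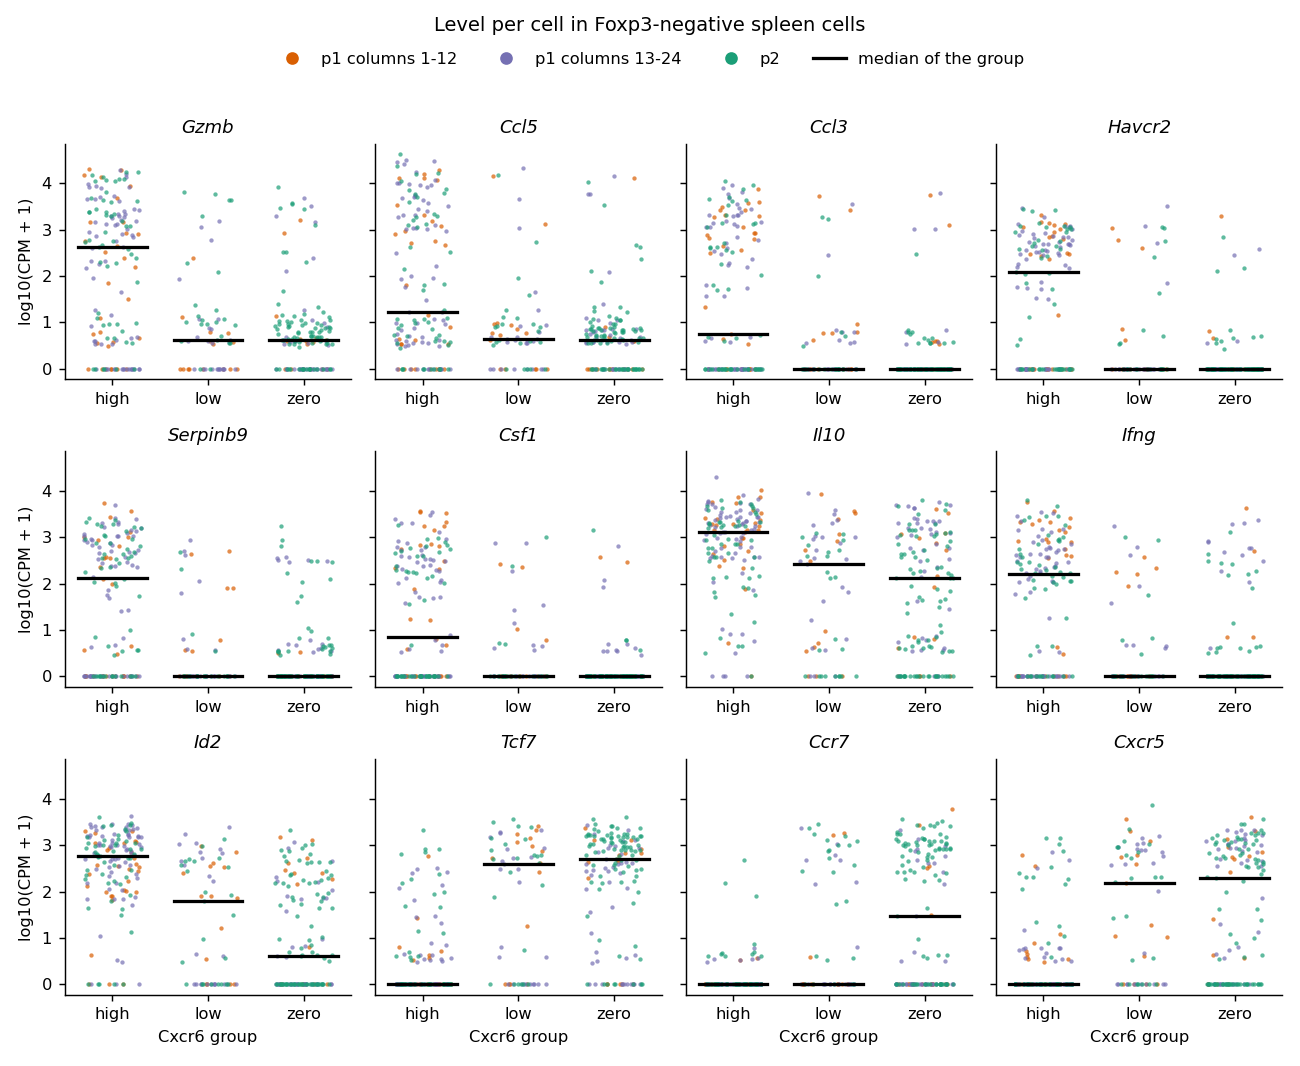
Level of 12 genes in each Foxp3-negative spleen cell as log10(CPM + 1) (y axis), by Cxcr6 group (x axis) and coloured by set of wells, with the median of each group as a black line. The median of Gzmb, Havcr2, Serpinb9, Ifng and Id2 is far higher in the Cxcr6-high cells, Tcf7, Ccr7 and Cxcr5 show the opposite, and the Cxcr6-low cells sit near the Cxcr6-zero cells for Tcf7 and Cxcr5.

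Among 10 chemokine ligands 4 stayed below 10 CPM in both groups and 5 were higher. Of these, Ccl1 and Ccl9 reached 10 CPM in the Cxcr6-high cells alone, and Ccl5 and Ccl3 are markers picked on these same cells. Only Ccl4 remains, so the number is not read as a result. Ccl5, which attracts T cells and monocytes, ranged from 0 to 42422 CPM with a median of 15.3 in the Cxcr6-high cells, against 0 to 14836 CPM with a median of 3.23. Its mean was 3198 CPM, 8.55 times that of the Cxcr6-zero cells (log2 ratio 3.09 ± 1.12), and 48.7% (40.7 to 56.8%) against 8.72% (4.73 to 14.5%) of the cells held 10 reads. Ccl3 and Ccl4, a pair of closely related ligands of the same receptors, were at 1048 against 103.5 CPM (3.33 ± 3.46) and at 2702 against 396.6 CPM (2.76 ± 1.76). The ratios of all 3 were larger on p2 than on p1. For Ccl3 it was 7.83 on p2, where the Cxcr6-zero cells had a mean of 3.91 CPM, and 2.05 on p1, where they had 243.2 CPM. Ccl3 and Ccl4 were also found in the same cells: all 72 Cxcr6-high cells with 10 reads of Ccl4 had 10 reads of Ccl3, and 76 cells had Ccl3. Reads of these near copies could have been split or shared by the authors' counting. Ccl1 and Ccl9 were counted as higher too, but 4.49% and 2.56% of the cells held them. Xcl1, the gene not counted, had ratios of opposite sign on the plates (-5.07 on p1 and 1.04 on p2).

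The receptors for chemoattractants split, with 7 of 15 genes compared higher and 5 lower. Ccr1, Ccr6 and Cx3cr1 entered through the Cxcr6-high cells alone and Ccr7 through the Cxcr6-zero cells alone, so these genes had to differ. Ccr2, the receptor for Ccl2 that leads cells to inflamed tissue, had the largest ratio among those held by many cells. It ranged from 0 to 3657 CPM in the Cxcr6-high cells with a median of 2.28, and from 0 to 1353 CPM in the Cxcr6-zero cells with a median of 0. The mean was 350.8 against 10.8 CPM (log2 ratio 4.90 ± 2.66), and 41.7% against 2.01% of the cells held 10 reads. Ccr8, found on TH2 and regulatory T cells, was at 444.3 against 96.1 CPM (ratio 2.20), and the fractalkine receptor Cx3cr1 at 80.8 against 5.44 CPM (3.67 ± 1.37). Ccr1 and Ccr6 were carried with 10 reads by 6.41% and 2.56% of the Cxcr6-high cells, and 44.3% of the Ccr9 reads came from a single cell. The receptors that lead to lymphoid tissue were lower. Ccr7 had the largest negative ratio of all genes compared that many Cxcr6-zero cells held. It ranged from 0 to 6080 CPM in the Cxcr6-zero cells with a median of 28.5, and from 0 to 491.2 CPM in the Cxcr6-high cells with a median of 0. At least 10 reads were found in 1.92% of the Cxcr6-high and 49.7% of the Cxcr6-zero cells, and the log2 ratio was -6.57 ± 1.66. Cxcr5, which brings cells into B cell follicles, was at 56.3 against 563.5 CPM (-3.30 ± 1.38), and 20.4% of the Cxcr6-high cells on p2 but 4.9% of those on p1 held 10 reads. S1pr1, needed for exit from lymphoid organs, had a ratio of -1.48, Gpr183 of -1.45 and Gpr18 of -1.33.

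**Figure D4:**
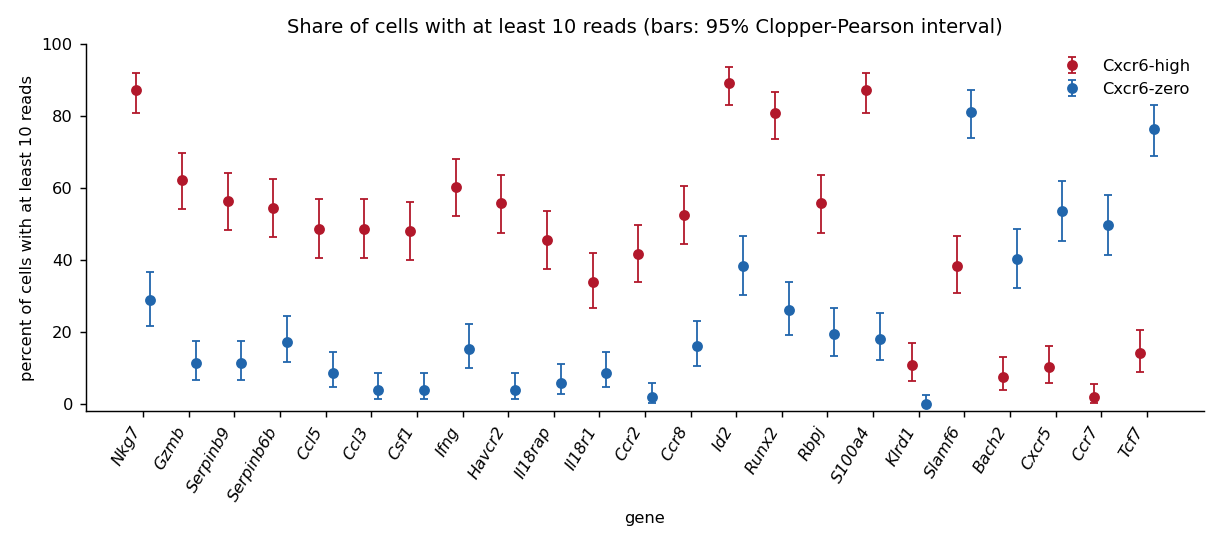
Percent of cells with at least 10 reads (y axis) for 23 genes (x axis), in Cxcr6-high (red) and Cxcr6-zero (blue) cells, with 95% Clopper-Pearson intervals that cover counting error only. The first 18 genes from Nkg7 to Klrd1 were counted as higher and the last 5 from Slamf6 to Tcf7 as lower in Cxcr6-high cells. They were picked for the figure among genes already counted so, and include the 7 other markers. Intervals that lie apart therefore follow from this choice, and their share over all genes was not computed.

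The naive and central memory list was lower in 10 of 12 genes compared and higher in none (median log2 ratio -2.26, beside -0.05 over all genes). Of the lower genes, Ccr7 and Id3 entered through the Cxcr6-zero cells alone. Tcf7, the transcription factor that keeps T cells in a memory-like state, ranged from 0 to 2148 CPM with a median of 0 in the Cxcr6-high cells and from 0 to 4161 CPM with a median of 493.6 in the Cxcr6-zero cells. The mean was 53.3 against 763.9 CPM (-3.82 ± 0.84). Bach2, a repressor of effector genes, was at 21.2 against 183.8 CPM (-3.05 ± 0.89), and Slamf6 was at 210.9 against 889.3 CPM. Id3 and Lef1 had ratios of -3.66 and -2.45. The Cxcr6-low cells stood with the Cxcr6-zero cells here, at 679.5 CPM of Tcf7 and 889.6 CPM of Slamf6. Among the lower genes that were read in at least 25% of the Cxcr6-zero cells and lay below 0 in all 3 sets, other genes of the 12 with the largest negative ratios were Aff3 (-4.06), Synpo (-3.94), Actn1 (-3.44), Sesn1 (-3.13), the receptor Igf1r (-3.05), Mboat1 (-2.77) and the TGF-beta co-receptor Tgfbr3 (-2.61). Tcf7 was not absent from the group: 22 of the Cxcr6-high cells held 10 reads (14.1%, 9.05 to 20.6%), 12 of them on p2. Of these 22 cells, 18.2% held 10 reads of Ccl3 and 22.7% of Ifng, against 53.7% and 66.4% of the other Cxcr6-high cells.

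The cytokine of the sort, Il10, had at least 1 read in 96.2% of the Cxcr6-high and 77.2% of the Cxcr6-zero cells. At least 10 Il10 reads were held by 88.5% and 57.7% of them. Its level ranged from 0 to 20384 CPM with a median of 1325 in the former and from 0 to 6502 CPM with a median of 130 in the latter. The Cxcr6-low cells had a median of 266.9 CPM, the Foxp3-positive spleen cells of 1237 CPM and the Foxp3-negative small intestine cells of 1361 CPM. The mean of 2005 against 810.9 CPM gave a log2 ratio of 1.30 ± 0.45, with 0.93 within p1 and 1.47 within p2. At least 1000 CPM were reached by 54.5% of the Cxcr6-high cells (46.3 to 62.5%) and 28.2% of the Cxcr6-zero cells (21.1 to 36.1%). Of 12 cytokine genes compared, 6 were higher and none lower. Il4, Il17a and Il17f of these entered through the Cxcr6-high cells alone and Csf1 is a marker, which leaves Il10 and Ifng. The number is therefore not read as a result. Ifng, the cytokine of TH1 cells, ranged from 0 to 6531 CPM (median 158.6) in the Cxcr6-high and from 0 to 4430 CPM (median 0) in the Cxcr6-zero cells. Its mean was 609.9 against 126.8 CPM, with a log2 ratio of 1.24 within p1 and 4.07 within p2. Csf1, the growth factor of macrophages, was at 361.1 against 20.1 CPM (4.10 ± 0.30), and 48.1% against 4.03% of the cells held 10 reads. Il4 had a ratio of 1.8, and Il17a and Il17f were carried by 3.21% and 1.28% of the Cxcr6-high cells. The inflammatory cytokine Tnf was at 39.6 and 32.3 CPM, Il21 at 188.1 and 200.3 CPM. Ccl3 was found more often in cells that held Ifng: of the 94 Cxcr6-high cells with 10 Ifng reads, 72.3% (62.2 to 81.1%) held Ccl3, against 12.9% (5.74 to 23.9%) of the 62 others.

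Cytokine receptors were higher in 7 of 19 genes and lower in 2. Of the higher genes, Il1rl1 and Il1r2 entered through the Cxcr6-high cells alone, and Il18rap is a marker. Both chains of the IL-18 receptor were among the higher genes. Il18rap was at 314.7 against 49.6 CPM (2.64 ± 0.58) and reached 3861 CPM in the highest Cxcr6-high cell, with a median of 3.14. Il18r1 was at 140.7 against 25.4 CPM (2.42 ± 0.82). Il12rb2 and Ifngr1, which receive IL-12 and IFN-gamma, had ratios of 1.58 and 1.54. Il6ra and Il6st, the receptor for IL-6, had ratios of -2.33 and -1.02. Il10ra, Il27ra and Il21r lay within 0.16 of 0.

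Co-inhibitory receptors were higher in 6 of 12 genes compared and lower in 2. Of the higher genes, Havcr2 is a marker and Klrg1 entered through the Cxcr6-high cells alone. Havcr2, encoding Tim-3, ranged from 0 to 2910 CPM with a median of 118.7 in the Cxcr6-high cells, and from 0 to 1985 CPM with a median of 0 in the Cxcr6-zero cells. Its mean was 401.5 against 24.6 CPM (log2 ratio 3.98 ± 1.73), and 55.8% against 4.03% of the cells held 10 reads. Pdcd1, encoding PD-1, had 10 reads in 85.9% against 48.3% of the cells (1.54 ± 0.43), Ctla4 was at 4720 against 1511 CPM (1.64 ± 0.71), Lilrb4 was held by 46.2% against 12.1% of the cells (2.10 ± 0.40), and Entpd1, which breaks down extracellular ATP, was at 220.8 against 76.6 CPM (1.52). Lag3 and Tigit were high in both groups. Lag3 was at 3020 and 2399 CPM, with ratios of -0.22 within p1 and 0.91 within p2, and Tigit at 2963 and 2080 CPM. Klrg1 had no read in the Cxcr6-zero cells and 10 reads in 10 Cxcr6-high cells. Btla and Cd200 had ratios of -1.34 and -1.94. Counting the 5 receptor genes Pdcd1, Lag3, Tigit, Havcr2 and Itga2 after thinning to 160000 reads, a Cxcr6-high cell had a read of 3.53 ± 0.68 (SD over cells) and a Cxcr6-zero cell of 2.52 ± 0.77. Without thinning the means were 3.55 and 2.64. At least 4 of the 5 were read in 57.1% of the Cxcr6-high cells (48.9 to 64.9%), 4.70% of the Cxcr6-zero cells (1.91 to 9.44%) and 48.1% of the small intestine cells (40.2 to 56.2%). This count is not independent of the markers, since Havcr2 is 1 of them. After thinning Havcr2 was read in 58.3% of the Cxcr6-high and 8.72% of the Cxcr6-zero cells, and Pdcd1 in 88.5% and 54.4%. Lag3 and Tigit were read in at least 90.6% of either group. Itga2, encoding CD49b, was read in 6.41% of the Cxcr6-high and 0.671% of the Cxcr6-zero cells. Among 14 costimulatory receptors and TNF family ligands only Slamf7 (1.23) and Tnfrsf1b (1.12) were higher, and Icos was at 3139 and 2293 CPM.

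Of 19 transcription factor genes of effector and TR1 cells, 7 were higher and 1 was lower. Id2, which supports effector T cells and opposes the E proteins, ranged from 0 to 4254 CPM with a median of 598.1 in the Cxcr6-high cells, and from 0 to 2143 CPM with a median of 3.05 in the Cxcr6-zero cells. Its mean was 883.3 against 147.8 CPM (log2 ratio 2.57 ± 1.49). Rbpj, the partner of Notch, was at 130.3 against 24 CPM (2.39 ± 1.02), Ahr at 148.7 against 36.6 CPM (1.99 ± 0.40), and Runx2 at 371.2 against 94.6 CPM (1.96 ± 1.12). Bhlhe40, Rora and Prdm1, encoding Blimp-1, had ratios of 1.82, 1.52 and 1.29. Maf, a regulator of Il10, was at 697.3 and 645.3 CPM, and Tbx21, encoding T-bet, had a ratio of 0.52. Eomes, the lower gene, entered through the Cxcr6-zero cells alone. It had a ratio of -1.21 but was held with 10 reads by 4.49% and 4.70% of the cells. Of 15 genes that respond to T cell receptor signals Dusp5 (1.04) and Nfkbid (1.13) were higher and Cd69 (-1.74) was lower, with a median ratio of 0.03 over the list. Dusp2 was at 993.7 and 1100 CPM.

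In the list of S100, annexin and lectin genes, which rise in effector and memory T cells, 8 of 15 were higher and none lower. S100a4 ranged from 0 to 9285 CPM with a median of 1638 in the Cxcr6-high cells and from 0 to 5138 CPM with a median of 0 in the Cxcr6-zero cells. The mean was 2030 against 209.5 CPM (3.27 ± 0.59), and 87.2% against 18.1% of the cells held 10 reads. Its mean in the small intestine cells was 28.9 CPM. Lgals3 and Anxa2 had ratios of 2.14 and 1.94, Lgals1 was at 2392 against 777.6 CPM (1.62), and of 11 integrin and adhesion genes 3 were higher, Icam1 (1.33), Itgav (1.24) and Cd44, the marker of antigen-experienced T cells, at 345.2 against 162.7 CPM (1.08). Among the higher genes that were read in at least 25% of the Cxcr6-high cells and lay above 0 in all 3 sets, the other genes of the 12 with the largest positive ratios were the protease Adam8 (69 against 0.757 CPM, 5.32), the ectoenzyme Cd38 (3.86), Sv2c (53.2% against 10.7% of cells with 10 reads, 3.67) and the proprotein convertase Furin (269.1 against 23.9 CPM, 3.44 ± 0.13).

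Smaller groups of Cxcr6-high cells held genes of other T helper and NK programmes. The higher genes of the TH2 and TH17 list, Il4 and Il1rl1 among them, all entered through the Cxcr6-high cells alone, so their number is not read as a result. The same held for Klrk1, Klrd1, Klrc1 and Klrb1f of the list of 13 NK receptor genes, where 9 stayed below 10 CPM in both groups. Of 7 follicular helper genes Il4 was higher and Cxcr5 lower, and of 8 regulatory T cell genes other than Foxp3 2 were lower, Gpr83 (-3.61) and Folr4 (-1.41). Gpr83 entered through the Cxcr6-zero cells alone. At least 10 reads of Il5 or Il1rl1, the latter encoding the IL-33 receptor, were found in 20 cells, 17 of them in columns 13-24 of p1 and 1 on p2. Of the 20 cells with Il1rl1, 16 held Ccr8, 7 held Il5 and 4 held Ccl3 (20%, 5.73 to 43.7%), where 52.9% of the other Cxcr6-high cells held Ccl3 (44.2 to 61.6%). The NK receptor genes Klrd1, Klrk1 or Klrc1 had 10 reads in 26 Cxcr6-high cells (16.7%, 11.2 to 23.5%) and in 1 Cxcr6-zero cell (0.671%, 0.0170 to 3.68%). Klrd1, encoding CD94, had no read in the Cxcr6-zero cells. Its mean was 52.23 CPM in the Cxcr6-high cells, where 17 cells (10.9%) carried 10 reads. No fold is given, since few cells set this mean and the gene entered through that group. Of these 17 cells, 94.1% also held Havcr2 and 88.2% Ifng.

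Genes of the cell cycle were higher in 6 of 20 and lower in none, with a median log2 ratio of 0.91. Mki67 was at 696.9 against 337.4 CPM (1.04) and Mcm5 was held with 10 reads by 50% against 22.1% of the cells (1.25). Reads of at least 10 of the 20 genes were found in 46.8% of the Cxcr6-high cells (38.8 to 54.9%) and 18.8% of the Cxcr6-zero cells (12.9 to 26%), or 44.2% and 18.1% after thinning. Before thinning this share was 44.25% in the Foxp3-positive spleen cells and 20.62% in the Foxp3-negative small intestine cells. The share was 40.2% on p1 and 59.3% on p2 in the Cxcr6-high cells, and 9.68% and 25.3% in the Cxcr6-zero cells. Without these cells 605 genes were higher and 934 lower (2.52% and 3.89% of gene rows), and Il10 had a ratio of 1.72. Of 13 interferon-stimulated genes 5 were lower in the Cxcr6-high cells and none was higher. Ifit3 had a ratio of -2.73, Mx1 of -1.48 and Isg15 of -1.18. Isg20 and Oasl1 were the others, and Oasl1 entered through the Cxcr6-zero cells alone. Of 12 genes of apoptosis and survival 1 was higher and 1 lower, close to the 6.47% and 7.31% of all genes. Both encode anti-apoptotic proteins, with Bcl2 at 28.4 against 177.1 CPM (-2.60 ± 0.29) and Bcl2a1d at 59.4 against 14.4 CPM (1.97 ± 0.39). Of 13 genes of glycolysis and nutrient transport 1 was higher, the glucose transporter Slc2a3 (2.4), again close to the 6.47% of all genes.

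**Figure D5:**
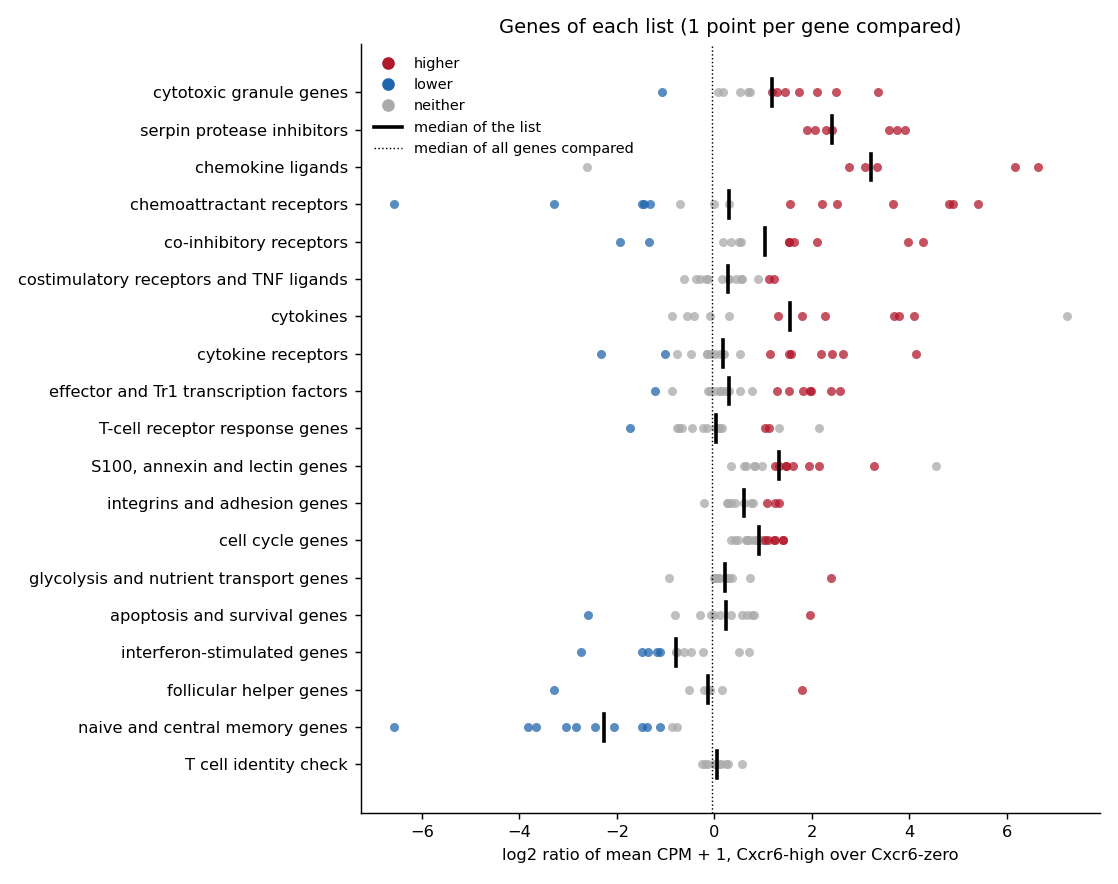
Log2 ratio of mean CPM + 1, Cxcr6-high over Cxcr6-zero cells (x axis), for the genes compared of 19 lists (y axis), 1 point per gene, with the median of each list as a black bar and the median of all genes compared as a dotted line. All 7 serpins and 5 of 6 chemokine ligands lie to the right of the dotted line and all naive and central memory genes to the left of it. Among these, Serpinb9, Ccl3 and Ccl5 are markers. Serpinb9b, Serpinb1a, Ccl1 and Ccl9 entered through the Cxcr6-high cells alone, and Ccr7 and Id3 through the Cxcr6-zero cells alone. Klrg1, without a read in the Cxcr6-zero cells, is drawn at a value that depends on the added 1 CPM.

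None of the 10 genes of T cell identity was higher or lower, and their summed level had a mean of 14107 against 13751 CPM. Markers of other cells were mostly low, and their part in the ratios was not tested beyond the B cell markers. Of 9 B and plasma cell genes 2 reached a mean of 10 CPM in the Cxcr6-high cells, Pax5 and Sdc1 had no read, and the summed level ran from 0 to 22988 CPM with a median of 0, against 0 to 984.1 CPM in the Cxcr6-zero cells. The highest value was a single cell on p2, and 74.7% of the Cd74 reads of the group came from 1 cell. Leaving out 5 Cxcr6-high and 7 Cxcr6-zero cells with B cell markers gave 588 higher and 656 lower genes (2.45% and 2.73% of gene rows), and Cd74 then had a ratio of -0.60 in place of 3.14. Of 9 myeloid genes 3 reached 10 CPM, Lyz2, Clec4d and S100a9 had no read, and the summed level was 0 to 1803 CPM against 0 to 875.6 CPM, with means of 294.6 and 160.4 CPM. At least 10 reads of 2 myeloid genes were found in 28 Cxcr6-high and 8 Cxcr6-zero cells, and Cd68 was counted as higher (51.1 against 17.7 CPM, 1.48). Of 7 NK and invariant NKT genes 1, Zbtb16, reached 10 CPM, in 5 cells with 10 reads, and was counted as higher with no read in the Cxcr6-zero cells. The summed level was 0 to 683 CPM, against 0 to 2962 CPM in the Cxcr6-zero cells. Of 3 genes of CD8 and gamma delta T cells 1, Cd8b1, reached 10 CPM (0 to 947.3 against 0 to 679.7 CPM summed), and of 10 erythroid, platelet and epithelial genes 1 did (0 to 494.3 against 0 to 771.9 CPM). The 5 receptor genes counted per cell, Itga2, the eGFP row and the count of cell cycle genes are given at 1 read, and Il10 at both 1 and 10. Other shares of cells are given at 10 reads, since reads of 1 to 9 were common for genes that are very high in other cells of the plates. Gzma had such low reads in the Cxcr6-zero cells, with a read in 51.7% but 10 reads in 5.37%, and stood at a mean of 37319 CPM in the small intestine cells of p2. Thinning to 160000 reads lowered the shares at 10 reads by a median of 0.641 percentage points in the Cxcr6-high and 0.671 points in the Cxcr6-zero cells over the named genes, at most by 32.7 points for Bcl2a1d.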

How the data were processed

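Cells were sorted from reporter mice, and per the labels each sample is 1 cell. The authors deposited raw read counts per gene, 1 column per cell, after STAR alignment in 2-pass mode; the build is unsettled, since the methods name Mm8 and the submitters' processing notes mm10, and the counting tool is not given in the sources used here. Of the rows, 88 join several genes under 1 name. Reads carry no molecular identifiers, so intervals cover counting error only.

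CPM were computed here over gene rows without the eGFP row. Cells entered with at least 160000 reads. Wells were sorted singly, and no doublet caller was run. Group means were compared as log2 ratios with a pseudocount of 1 CPM, where either mean reached 10 CPM. With no animal in the labels, no test was run. Ratios were checked on simulated data with known changes. These changes were larger than the ratio used for the calls and lay in genes of higher mean CPM. Genes near the limits of the calls were not checked in this way. Python 3.11.15, pandas 2.3.3, SciPy 1.17.1 and R 4.3.3 with edgeR 4.0.16 (scaling factors alone) were used. Named genes were the 8 markers, up to 4 per list with the largest ratio each way filled up by mean level, and the 12 largest each way with a read in at least 25% of cells and the same sign in all 3 sets; some further list genes were named after their values were seen. The cells and gene lists were chosen with earlier results of these data known. Promoter windows came from RefSeq. Alternatives were other pseudocounts, filters, thresholds, scalings and averages, single sets of wells, and leaving out each set, cycling cells or cells with B cell markers. A few genes are not reported here.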

Additional observations from a re-analysis of the deposited data

Results flagged for a closer look

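A few signals lay outside the comparison. The eGFP row, the transcript of the Il10 reporter, was not used for any ratio. It held a read in 68.59% of the Cxcr6-high cells (60.7 to 75.8%) and in 43.62% of the Cxcr6-zero cells (35.5 to 52%). On p1 the shares were 66.7% (56.6 to 75.7%) against 50% (37 to 63%), with intervals that overlap. On p2 they were 72.2% (58.4 to 83.5%) against 39.1% (28.8 to 50.1%). Of the Foxp3-positive spleen cells 69.54% held an eGFP read.

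Cxcr6 of at least 200 CPM was also found in cells that the choice left out. Among the Foxp3-positive spleen cells 41.95% reached it, and 42.2% of the Foxp3-negative spleen cells. The sets differed in both directions, with 36.97% of the Foxp3-positive against 50% of the Foxp3-negative cells in columns 1-12 of p1, 56.1% against 49.7% in columns 13-24, and 42.86% against 32.7% on p2, where only 14 cells were Foxp3-positive. Among the Foxp3-negative cells of the small intestine 78.12% did. All small intestine cells were on plate p2, where the share among Foxp3-negative spleen cells was 32.7%.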

How the results depend on the processing

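Without animals in the labels every value rests on 1 spleen sample, and low genes held by few cells are the least certain. Counts of genes are given here as percentages of all 23997 gene rows, the same base under each setting. The higher and lower genes, 2.39% and 2.7%, became 4.53% and 0.754% with the mean of log2(CPM + 1), 1.35% and 1.32% with a pseudocount of 10 CPM, 1.07% and 0.983% with a minimum mean of 50 CPM, and 0.671% and 0.613% at a log2 ratio of 2. Without a filter 3.96% were higher. Within single sets, where fewer cells enter and the condition on both plates cannot apply, 4.65% were higher within p1, 3.64% higher and 4.83% lower within p2, 8.73% and 8.06% within columns 1-12 of p1, and 5.63% and 4.47% within columns 13-24. Leaving out each set of wells in turn gave 2.56 to 4.65% higher and 2.8 to 3.84% lower genes. Both were highest without p2, which is the same run as within p1, where the condition on both plates cannot apply. The same settings gave a log2 ratio of Il10 of 0.93 to 1.64, 3.45 to 3.57 receptor genes per Cxcr6-high cell, and a Cxcr6-high share of 37.4 to 49.8%. That share was 50% in columns 1-12, 49.7% in columns 13-24, 49.8% on p1, 32.7% on p2 and 33.9% without cycling cells. Il10 had a difference of 3.43 in the mean of log2(CPM + 1) and a ratio of 0.75 within columns 13-24. Both other scalings (TMM and median of ratios) gave Il10 a ratio of 1.37. The 92 named genes counted as higher or lower were followed under 21 settings, and the 33 others were left out. Their sign within each plate was part of the count and is no sign of stability. Of the 1932 values, 11.7% moved by more than the SD of the 3 sets, and 8 changed sign. These were Gzma with the mean of log2(CPM + 1) (-0.22), within columns 1-12 (-3.72) and without cycling cells (-0.65), Cd74 with the mean of log2(CPM + 1) (-0.04) and without cells that hold B cell markers (-0.60), a setting chosen after seeing the data, and within columns 1-12 Ccl1 (-0.20), Klrc1 (-1.01) and Oasl1 (4.63). The cause of these changes was not tested.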
